A study of Mus musculus with 2 samples.

Results

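Motile cilia are the beating extensions that move fluid over airway, oviduct and ependymal surfaces. Each is built around an axoneme, a cylinder of microtubule doublets on which dynein arms generate force and radial spokes, a central apparatus and linker complexes coordinate it. Cells commit to making them through a short chain of regulators that includes Mcidas, Ccno, Foxj1 and the RFX factors, and the structural genes are then transcribed together. The genes examined here were the protein-coding genes whose symbols name an axonemal dynein chain (Dnah, Dnai or Dnaic), a dynein assembly factor (Dnaaf), a radial spoke protein (Rsph) or a cilia and flagella associated protein (Cfap), together with 8 genes added by name, Foxj1, Rfx2, Rfx3, Mcidas, Ccno, Ccdc39, Ccdc40 and Tekt1. This gave 70 of the 21949 protein-coding genes in the table, which lists 45777 genes in all.

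Polyadenylated RNA was sequenced from teratomas of E14, a mouse embryonic stem cell line, and of E14-Sox2TA/WT, a clone selected from that line after CRISPR editing in which 1 Sox2 allele encodes the T258A change and the other is wild type. Cells of each genotype were inoculated under the skin of 3 BALB/c-nu mice, and teratomas were harvested after 14 days. There was 1 library per group, with 50529171 reads on genes for E14 and 49030281 for E14-Sox2TA/WT, and the sources used here do not say whether a library came from 1 teratoma or from several. The labels name the tissue as teratoma while the extraction text speaks of the stem cell line. The host is also a mouse, so reads from host cells cannot be told apart from reads of the teratoma. Sox2, the edited gene, had 14585 reads (246 TPM) in E14 and 8623 reads (130.1 TPM) in E14-Sox2TA/WT, and the table does not separate the alleles. With 1 library per group no difference has a replicate check and no test was run, and each interval given is a 95% Clopper-Pearson interval that covers counting error only. Levels are given as TPM, a unit that corrects for transcript length and sequencing depth and so can be compared between genes. Ratios are E14-Sox2TA/WT over E14, and log2 ratios were taken after adding 1 to each TPM, which understates the ratio of low genes.

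Most motile cilia genes stood at similar levels in both teratoma libraries. Of the 70 genes, 62 reached a TPM of 1 in at least 1 library, and 56 of these 62 had a ratio within 2-fold. Only Cfap97d2, Dnah11 and Dnah7b were over 2-fold higher in E14-Sox2TA/WT, and only Mcidas, Cfap46 and Ccdc40 were over 2-fold lower. Dnah7b (0.677 and 1.36 TPM) reached a TPM of 1 only in E14-Sox2TA/WT, so this filter partly sets the count of higher genes. Among the 15694 protein-coding genes that reached the same TPM, 2668 (17.0%) were over 2-fold higher and 2963 (18.9%) were over 2-fold lower. With FPKM in place of TPM, the cilia genes split into 7 higher and 2 lower, and all genes into 3173 higher and 2334 lower. The counting interval lay wholly within 2-fold for 50 of the 62 cilia genes (80.6%) and for 57.7% of all genes. Under a stricter rule, which asked for 10 TPM in either library, 27 cilia genes were measured, none was over 2-fold higher and Ccdc40 was the 1 lower gene. Of the 10757 genes that met that rule, 1013 (9.42%) were higher and 2080 (19.3%) were lower. In a bulk sample, fewer ciliated cells and less RNA per ciliated cell cannot be told apart.

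The median log2 ratio was 0.03 over the 62 cilia genes and -0.10 over all 15694, a difference of 0.13. Other scalings moved the median of all genes to as much as 0.08, and the difference between the cilia genes and all genes then lay between 0.08 and 0.13. The middle 50% of the cilia genes spanned log2 ratios from -0.23 to 0.30, against -0.69 to 0.50 for all genes. The standard deviation of the log2 ratio was 0.50 for the cilia genes and 1.08 for all genes. Across genes, which are not independent replicates, the log2 levels of the 62 cilia genes in the 2 libraries had a Pearson r of 0.951 and a Spearman rho of 0.934, and those of all genes had 0.863 and 0.858. The genes nearest to 2-fold from inside were Cfap221 (0.918 and 1.84 TPM) and Cfap73 (1.08 and 2.14 TPM) on the higher side and Cfap20 (167 and 86.6 TPM) on the lower side. The ratio was above 1 for 33 cilia genes and below 1 for 29, and for 13 genes the counting interval included 1. Of all genes, 7096 had a ratio above 1 and 8598 below. With reads scaled by library totals 43 cilia genes were above 1, 6 were over 2-fold higher and 2 over 2-fold lower. Under that scaling 30.6% of the cilia genes and 46.2% of all genes were below 1, and of all genes 3138 were over 2-fold higher and 2293 lower. The 10 cilia genes that turned from below to above were Ccdc39, Cfap45, Cfap52, Cfap54, Cfap97, Dnah6, Dnaic1, Foxj1, Rsph14 and Tekt1.

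**Figure D1:**
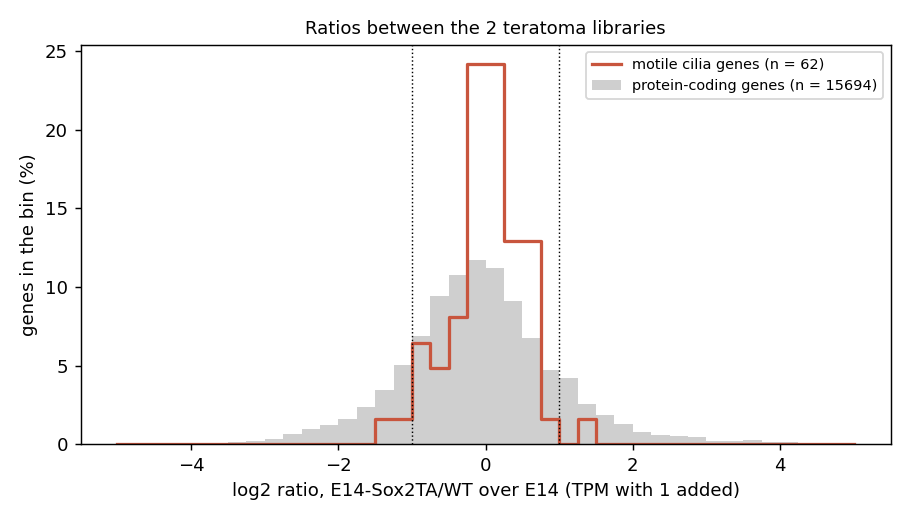
Share of genes (%) in each 0.25-wide bin of the log2 ratio of E14-Sox2TA/WT over E14, for the 62 motile cilia genes (red line) and 15694 protein-coding genes (grey bars). Dotted lines mark 2-fold after 1 was added to each TPM, and values past 5 are drawn in the outermost bins. The red line is concentrated around 0, while the grey bars spread over both tails.

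The regulators that start and maintain the program did not share a direction. Foxj1, the forkhead factor that switches on motile cilia genes, lies on chromosome 11 of GRCm38 from 116330704 to 116335499. It had 3896 reads (61.8 TPM) in E14 and 4088 reads (58.7 TPM) in E14-Sox2TA/WT, a ratio of 0.949 (0.908 to 0.992) that turned to 1.09 under FPKM and 1.08 with reads scaled by library totals. Foxj1 ranked among the 4 most abundant cilia genes in both libraries, at nearly the same level. Rfx2, an RFX factor that works beside Foxj1, had 900 and 1591 reads (11.3 and 17.8 TPM), a ratio of 1.58 (1.46 to 1.72). Rfx3, its relative, had 3297 and 2620 reads (12.02 and 10.7 TPM), a ratio of 0.891 (0.846 to 0.938).

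Mcidas had the lowest ratio of the 62 measured cilia genes. It encodes multicilin, the E2F partner that opens the multiciliated cell program, and lies on chromosome 13 from 112993581 to 113000394. It had 303 reads (5.78 TPM) in E14 and 103 reads (1.71 TPM) in E14-Sox2TA/WT, which is 3.38-fold lower (2.70 to 4.28). Under the other scalings its ratio lay between 0.321 and 0.350, against 0.295 with TPM. Ccno, the cyclin needed for the mass production of basal bodies, sits beside it from 112987802 to 112990778. It had 469 reads (10.4 TPM) and 363 reads (7.18 TPM), a ratio of 0.692 (0.602 to 0.795). Cdc20b, the next multiciliation gene along this stretch from 113034975 to 113121019, had 602 reads (8.28 TPM) and 237 reads (2.68 TPM), 3.09-fold lower (2.65 to 3.61). The abundant genes around this cluster that are not tied to cilia were closer to even than Mcidas and Cdc20b, with ratios of 1.12 for Mtrex, 0.657 for Dhx29 and 0.866 for Gpx8, though Dhx29 was further from even than Ccno, and the median log2 ratio of all genes on chromosome 13 was 0.16. These 3 flanking genes were named after their values were seen. Over the 5 regulators the median log2 ratio was -0.15, which turned to 0.03 under FPKM.

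RFX factors bind the X-box, a motif in 2 parts, searched on both strands. The first part was GTNACC or GTNGCC, a spacer of 0 to 3 bases of any kind came next, and the other part was AGCAAC or AGTAAC or GGCAAC or GGTAAC. Because the motif is nearly a palindrome, a stretch that reads as an X-box on the opposite strand also counts. RefSeq promoters of GRCm38.p6, running from 250 bases before the start site to 50 after it, were given for 58 of the 70 cilia genes. The letters of an X-box were present in 10 of these 58 (17.2%) and in 303 of the 17519 protein-coding genes with a promoter (1.73%). They were present in 17 of 78 other motile cilia genes (21.8%) and 8 of 61 primary cilium genes (13.1%). The stretches shown belong to Ccno, a regulator, to Cfap298 and Dnaaf2, factors for dynein assembly, to Dnaic1 and Dnaic2, intermediate chains of the outer dynein arm, and to Cfap44 and Cfap45. They show how the same motif recurs before the start site used here for genes with different roles and different ratios. In Dnaaf2, Dnaic1, Dnaic2 and Cfap44 the stretch shown lies within the RefSeq span of the gene, so that start site is not the outermost. The X-box is in capitals with up to 20 bases on each side in lower case, 5′ to 3′ on the strand of the gene.
Ccno, chr13:112987563-112987616, plus strand: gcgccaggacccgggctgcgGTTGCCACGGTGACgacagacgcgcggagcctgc
Cfap298, chr16:90934884-90934938, minus strand: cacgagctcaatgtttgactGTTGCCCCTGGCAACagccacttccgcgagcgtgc
Dnaaf2, chr12:69198430-69198466, minus strand: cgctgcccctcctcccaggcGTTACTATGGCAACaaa
Dnaic1, chr4:41569755-41569793, plus strand: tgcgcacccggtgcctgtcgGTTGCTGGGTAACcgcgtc
Dnaic2, chr11:114727366-114727418, plus strand: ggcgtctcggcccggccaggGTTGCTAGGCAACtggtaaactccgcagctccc
Cfap44, chr16:44394752-44394798, plus strand: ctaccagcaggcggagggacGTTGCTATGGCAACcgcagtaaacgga
Cfap45, chr1:172521091-172521129, plus strand: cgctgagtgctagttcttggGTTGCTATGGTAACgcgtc

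Apart from Ccno, where the capitals began 219 bases before the start site, those shown began 69 bases before it in Cfap298, 33 in Dnaic2, 27 in Cfap44, 19 in Cfap45 and Dnaic1, and 17 in Dnaaf2. Cfap298 held a second X-box that began 188 bases before its start site. The remaining genes with the motif were Cfap58, Cfap99 and Rsph3b, whose match lay after the start site. The 9 measured genes with an X-box had a median log2 ratio of -0.12, from -0.67 to 0.28. The 41 measured genes with a promoter and no X-box had a median of 0.03, from -1.32 to 1.32, so the ranges overlapped. A match describes these letters only, and no binding was measured.

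Among the 70 genes, 7 were factors that fold and assemble dynein arms in the cytoplasm, and their TPM ratios were all within 2-fold. Cfap298 was the most abundant of the 7, with 1718 reads (61.4 TPM) in E14 and 2335 reads (74.7 TPM) in E14-Sox2TA/WT, a ratio of 1.22 (1.14 to 1.30). Cfap300, which also serves arm assembly, stood at 21.1 and 24.98 TPM with a ratio of 1.18 (1.08 to 1.30). Dnaaf5 stood at 12.3 and 18.1 TPM, a ratio of 1.47 (1.36 to 1.59), and Dnaaf4 at 2.95 and 5.36 TPM, a ratio of 1.81 (1.47 to 2.24). With reads in place of TPM the ratio of Dnaaf4 passed 2-fold, at 2.32 by library totals and 2.13 by TMM factors. Dnaaf2 and Dnaaf3 lay on the other side, at 21.1 and 15.5 TPM with a ratio of 0.733 (0.685 to 0.785), and at 13.4 and 11.3 TPM with a ratio of 0.848 (0.762 to 0.943). Dnaaf1, at 4.24 and 4.34 TPM, did not differ beyond counting error. The group median was 0.23 on the log2 scale. The values of Dnaaf4 and Dnaaf2 are uncertain, since 58.2% of the 50-base stretches of the Dnaaf4 transcript also occur in Gm44503 and 37.9% of those of Dnaaf2 in Gm49383.

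Axonemal dynein heavy chains, the motor subunits, were low and leaned towards E14-Sox2TA/WT. Of the 11 measured heavy chains, 18.2% had a ratio below 1, against 54.8% of all genes, and by library totals the shares were 9.09% and 46.2%. The 4 measured outer arm chains were all higher in E14-Sox2TA/WT, with a median log2 ratio of 0.41. Dnah5, the chain most often mutated in primary ciliary dyskinesia, had 818 and 1169 reads (2.18 and 2.93 TPM), a ratio of 1.35 (1.23 to 1.48). Dnah9 and Dnah11, its partners in the distal and proximal parts of the cilium, had 659 and 1213 reads (2.03 and 3.34 TPM) and 540 and 1015 reads (1.60 and 3.53 TPM). Their ratios were 1.65 (1.496 to 1.81) and 2.204 (1.98 to 2.45). Dnah8, a chain best known from sperm flagella, stood at 2.36 and 2.92 TPM. With reads scaled by library totals the ratio of Dnah11 was 1.94, under 2-fold.

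The inner arm heavy chains were more mixed, with 5 of the 7 measured above 1 and a median log2 ratio of 0.19. Dnah3, Dnah12, Dnah1 and Dnah10 had 1.67 and 2.25, 1.795 and 2.31, 1.88 and 2.28, and 1.12 and 1.29 TPM in E14 and E14-Sox2TA/WT. Dnah7b stood at 0.677 and 1.36 TPM, a ratio of 2.01 (1.70 to 2.38), but 48.4% of the 50-base stretches of its transcript recur in Dnah7c, so reads may be divided between these copies. Dnah7b was also measured only through E14-Sox2TA/WT, the library where it was higher. Dnah6 had 1163 and 1190 reads (3.84 and 3.52 TPM) with a ratio of 0.917 (0.845 to 0.995). Dnah2, a chain of the double-headed inner arm, had 1315 and 1130 reads (5.11 and 3.04 TPM). Its TPM ratio was 0.594 (0.548 to 0.644) while its read ratio after scaling by library totals was 0.886, so the deposited TPM and counts differ in how far this gene was lower. The intermediate chains Dnaic1 (5.27 and 4.96 TPM) and Dnaic2 (10.5 and 7.37 TPM), which tether the outer arm motor, had ratios of 0.9403 (0.806 to 1.10) and 0.701 (0.626 to 0.785).

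The heavy chains did not follow the relation between ratio and transcript length seen over all genes. Over 15478 protein-coding genes with a transcript length, the Spearman rho of length and log2 ratio was -0.28, and the median log2 ratio ran from 0.29 in the shortest of 10 equal length classes to -0.53 in the longest. Over the 62 cilia genes the same rho was 0.10, given as a description across genes that share 2 libraries. The 11 measured heavy chains, with transcripts of 12009 to 16685 nt, all belonged to the longest class. Relative to the median of that class, 10 of them were higher and 1, Dnah2, was lower, with a median log2 difference of 0.78 and a range from -0.06 to 1.34. Within this class the median transcript had 8236 nt, so the heavy chains were also long for their class.

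**Figure D2:**
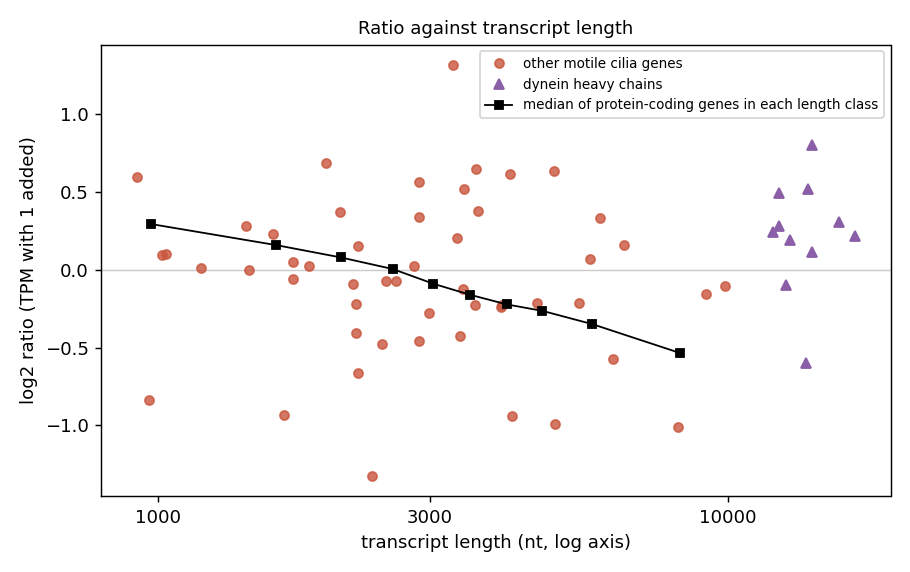
The log2 ratio of E14-Sox2TA/WT over E14 against transcript length in nt (log axis) for 62 motile cilia genes, with dynein heavy chains as triangles and the median of all protein-coding genes in each of 10 length classes as joined squares. The squares descend from 0.29 to -0.53 with length, while 9 of the 11 triangles lie above 0.

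Ccdc39 and Ccdc40, which together form the ruler that spaces inner arms and spokes along the doublet, stood apart from each other. Ccdc39 had 1094 and 1077 reads (11.6 and 9.76 TPM), a ratio of 0.843 (0.775 to 0.918) that turned to 1.01 with reads scaled by library totals. Ccdc40 had 2659 and 1487 reads (22.7 and 10.9 TPM), 2.08-fold lower (1.95 to 2.22), and its ratio by reads was 0.576, within 2-fold. In E14 the Ccdc40 level was well above that of its partner, and in E14-Sox2TA/WT the levels were close. Of the genes that tether or modify the inner arms, Cfap43 (4.92 and 6.44 TPM) and Cfap44 (5.54 and 6.30 TPM) had ratios of 1.31 (1.18 to 1.45) and 1.14 (1.04 to 1.246). Cfap100 (9.81 and 7.93 TPM) and Cfap57 (2.88 and 2.31 TPM) had ratios of 0.808 (0.728 to 0.898) and 0.803 (0.674 to 0.955). Cfap73, the binding partner of Cfap100, had only 24 and 54 reads, a ratio of 1.99 (1.21 to 3.37), or 2.32 by library totals.

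Radial spoke genes were all within 2-fold and lay on both sides of an even ratio. Rsph1, a protein of the spoke head, had 936 and 1054 reads (35.3 and 35.6 TPM), a ratio of 1.01 (0.923 to 1.10). Rsph9 and Rsph4a belong to the same head, yet Rsph9 had 1314 and 784 reads (54.4 and 29.9 TPM), a ratio of 0.551 (0.504 to 0.602), and Rsph4a had 708 and 1058 reads (8.05 and 10.8 TPM), a ratio of 1.34 (1.22 to 1.47). The counting intervals of these 3 head proteins did not overlap each other. The stalk genes Rsph3a (25.7 and 19.2 TPM) and Rsph3b (35.0 and 21.7 TPM) share 74.0% and 75.8% of their 50-base stretches, so their separate values are uncertain, but both were lower in E14-Sox2TA/WT. Cfap206 (15.001 and 16.8 TPM), Rsph14 (5.90 and 5.62 TPM) and Cfap61 (3.67 and 2.96 TPM) completed the group. Its median log2 ratio was -0.15, which turned to 0.01 under FPKM and 0.02 with reads scaled by library totals.

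The central apparatus genes were uneven, and the middle 50% of their log2 ratios spanned 0.76, the widest of the role groups. Cfap46 lies on chromosome 7 from 139600914 to 139684787. It had 906 and 427 reads (5.07 and 2.005 TPM), 2.53-fold lower (2.25 to 2.84). Cfap69 and Cfap70 were on the other side, with 617 and 895 reads (5.43 and 8.96 TPM) and 222 and 439 reads (2.54 and 4.54 TPM), and ratios of 1.65 (1.49 to 1.83) and 1.79 (1.52 to 2.11). By library totals Cfap70 had 2.04, over 2-fold. Cfap65 (6.95 and 7.33 TPM), Cfap74 (8.07 and 6.81 TPM) and Cfap54 (3.25 and 2.95 TPM) were close to even. Over the 7 measured genes the median log2 ratio was 0.07, from -1.01 to 0.65.

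Most genes for proteins inside the doublet microtubules stood at similar levels in both libraries. Tekt1, a tektin filament protein, had 1063 and 1191 reads (31.5 and 31.4 TPM), a ratio of 0.998 (0.918 to 1.09). Cfap126 (50.2 and 53.8 TPM), Cfap52 (17.5 and 16.4 TPM), Cfap45 (15.5 and 14.2 TPM) and Cfap77 (4.91 and 5.02 TPM) all had counting intervals that included 1. Cfap161 (8.70 and 11.3 TPM) and Cfap53 (2.82 and 3.93 TPM) were higher, with ratios of 1.30 (1.11 to 1.52) and 1.39 (1.12 to 1.74). Cfap20, at the inner junction of the doublet, was the most abundant cilia gene in both libraries and the exception in this group. It had 5217 and 3014 reads (167 and 86.6 TPM), a ratio of 0.517 (0.495 to 0.541). Cfap20 lies on chromosome 8, where the median log2 ratio of all genes was -0.54 against -0.94 for Cfap20.

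The Cfap genes with no role assigned here included both another abundant gene with a lower level and the highest ratio among the 62 measured genes. Cfap36, a binding partner of the small GTPase Arl3, had 5291 and 3019 reads (132 and 68.7 TPM), a ratio of 0.519 (0.496 to 0.543). Cfap410 stood at 36.2 and 24.0 TPM, a ratio of 0.664 (0.614 to 0.718), and Cfap97 at 10.7 and 9.03 TPM, a ratio of 0.848 (0.785 to 0.917) that turned to 1.11 by library totals and 1.01 by TMM factors. Cfap97d2, on chromosome 8 from 13705750 to 13744599, had 114 and 334 reads (1.44 and 5.07 TPM). Its TPM ratio was 3.52 (2.84 to 4.396), its read ratio was 3.02, and among the 62 measured genes it was the 1 whose whole interval lay above 2-fold. Cfap299 (6.10 and 6.59 TPM), Cfap157 (2.68 and 2.82 TPM) and Cfap58 (1.09 and 1.40 TPM) had intervals that included 1.

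**Figure D3:**
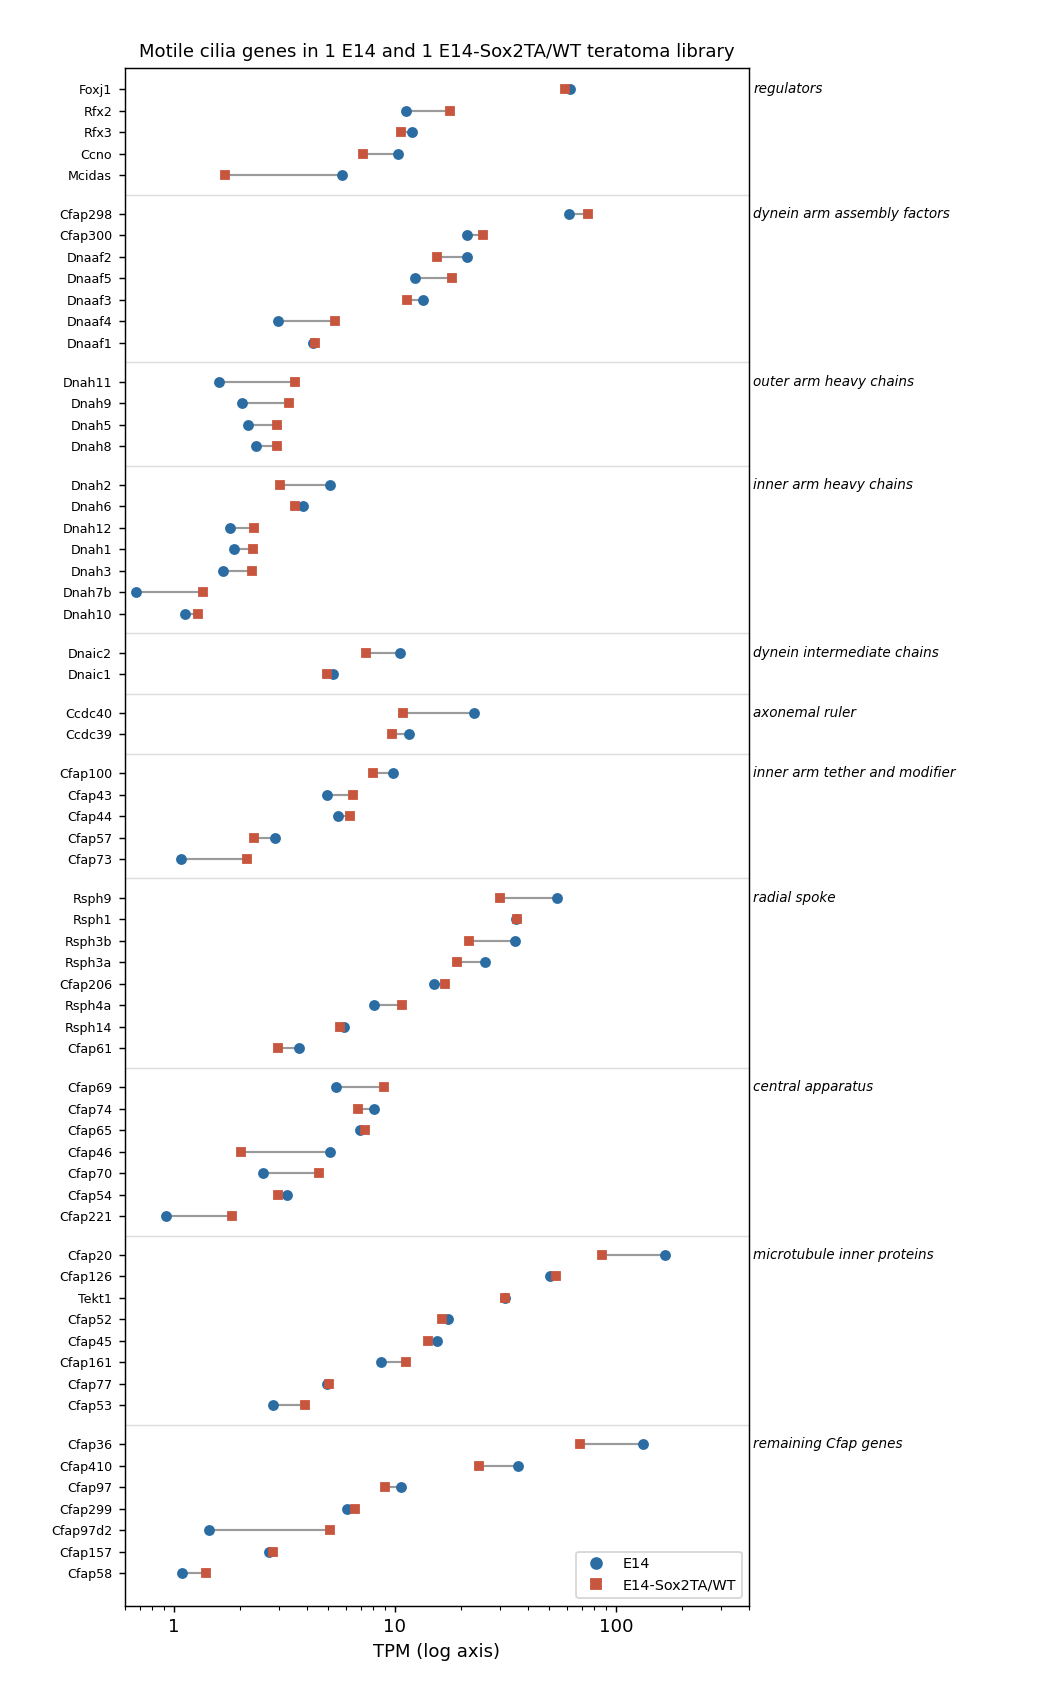
TPM (log axis) of the 62 measured motile cilia genes in the E14 library (circles) and the E14-Sox2TA/WT library (squares), grouped by role and ordered by level, with a line joining the values of a gene. Most pairs lie close together, and the long lines belong to Mcidas, Cfap46, Cfap97d2, Ccdc40, Dnah11 and Dnah7b.

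The summed TPM of the cilia genes was lower in E14-Sox2TA/WT although their median ratio was close to even. The summed TPM of the 62 genes was 1041 in E14 and 854 in E14-Sox2TA/WT, a ratio of 0.821, and the 27 genes that reached 10 TPM had a log2 ratio of -0.15 at the median. Cfap20 and Cfap36 took 167 and 132 of the 1041 TPM in E14, and 86.6 and 68.7 of the 854 TPM in E14-Sox2TA/WT. A sum is thus weighted to the most abundant genes. It was taken with TPM only. TPM was 2.33 times FPKM in E14 and 2.03 times in E14-Sox2TA/WT, so the ratio of the sums is higher under FPKM. The other 8 genes stayed under a TPM of 1 in both libraries. They were Cfap47, Cfap97d1, Cfap99, Dnah14, Dnah17, Dnah7a, Dnah7c and Rsph6a, from 0 to 75 reads in E14 and from 0 to 202 in E14-Sox2TA/WT. Cfap97d1 had no read in either library, and a count of 0 allows up to 3 reads. Cfap47, singled out after its values were known, had 43 and 202 reads, a ratio of 4.23 (3.03 to 6.02). Dnah14, singled out after its values were seen, had no read in E14 and 41 in E14-Sox2TA/WT, which is at least 14.1-fold higher against a floor of 3 reads per library.

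Other motile cilia genes, taken from lists that hold none of the 70, showed a wider spread than the 62 measured genes. The middle 50% of their log2 ratios spanned 0.96, against 0.53 for the 62 and 1.19 for all genes. Of 96 such genes, 91 reached a TPM of 1, with a median log2 ratio of 0.16. Of the 91, 15 (16.5%) were over 2-fold higher and 6 (6.59%) lower, against 17.0% and 18.9% of all genes. With reads scaled by library totals these counts became 20 and 2, and those of all 15694 genes became 3138 and 2293. Genes named only to complete a count of 5 or fewer were chosen after their values were seen. In the multiciliation program, 0 of 14 were higher and 2 were lower, Cdc20b and Myb, and the median was -0.21. The 2 lower genes are 14.3% of the list, near the 18.9% of all genes. A ratio above 1 was seen for 5 of the 14 and below 1 for 9. With reads scaled by library totals 1 of the 14 was over 2-fold higher, Trp73, and 1 was lower, Cdc20b. Myb, which acts early in multiciliated precursors, had 1196 and 642 reads (14.1 and 6.63 TPM), 2.12-fold lower (1.92 to 2.34), but its ratio by reads was 0.553, within 2-fold. Deup1, which builds the deuterosome on which centrioles multiply, had 804 and 487 reads (12.4 and 6.65 TPM), a ratio of 0.535 (0.477 to 0.599), and was named after its values were seen. E2f4 (71.6 and 62.7 TPM), E2f5 (44.3 and 51.7 TPM) and Rfx4 (50.4 and 34.7 TPM), factors with uses outside multiciliated cells, were the most abundant of the list. Plk4 (24.2 and 27.7 TPM) and Ccdc78 (4.63 and 8.18 TPM), other centriole genes also named after their values were seen, had higher values in E14-Sox2TA/WT. So did Trp73 (1.89 and 3.77 TPM) and Gmnc (0.993 and 1.61 TPM), likewise named after their values were seen. Their TPM ratios were 1.995 (1.69 to 2.36) and 1.62 (1.27 to 2.07), and Gmnc reached a TPM of 1 only in E14-Sox2TA/WT.

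Markers widely used for mature multiciliated cells had a log2 ratio of 0.28 at the median, and 9 of 26 were over 2-fold higher and 1, Morn2, lower. These are 34.6% and 3.85% of the list, against 17.0% and 18.9% of all genes. Stoml3 (0.708 and 2.05 TPM), counted among the 9, reached a TPM of 1 only in E14-Sox2TA/WT, so the filter partly sets this count. Sntn, a protein of the ciliary tip, had 110 and 507 reads (3.67 and 15.2 TPM), a ratio of 4.14 (3.36 to 5.14). Capsl had 493 and 1728 reads (21.9 and 68.3 TPM), a ratio of 3.12 (2.82 to 3.46). Capsl lies on chromosome 15, where the median log2 ratio of all genes was 0.33 against 1.60 for Capsl. Fam183b stood at 14.6 and 109.9 TPM, a ratio of 7.55, but its read ratio was 2.44, so the size of its difference depends on the unit. Tppp3, the most abundant of the list but not restricted to ciliated cells, had 400 and 296 TPM, a ratio of 0.739 (0.718 to 0.761). Morn2 was named after its values were seen and stood at 37.9 and 15.5 TPM, with a ratio by reads of 0.576, within 2-fold.

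Among other structural lists, the median for dynein arm and docking genes was 0.32 on the log2 scale. Here 2 of 16 were higher, Wdr78 (5.22 and 11.8 TPM) and Lrrc6 (2.28 and 4.71 TPM), 0 were lower, and Ccdc114 (8.54 and 16.9 TPM) was just under 2-fold, or 2.07 by reads. Dynlrb2, Dnal4 and Tctex1d2, small dynein subunits and the most abundant of the list, had ratios of 1.21, 0.938 and 1.31. The nexin-dynein regulatory complex, which links neighbouring doublets, had a median of 0.11, with 1 of 10 higher, Fbxl13 (0.495 and 1.03 TPM), and 2 lower, Gas8 (58.9 and 25.3 TPM) and Iqcd (7.01 and 3.37 TPM). By reads the ratios of these 3 were 1.98, 0.533 and 0.628, all within 2-fold. Fbxl13 reached a TPM of 1 only in E14-Sox2TA/WT. Drc1 and Drc3 of the same complex had ratios of 1.02 and 1.07. Other microtubule inner proteins had a median of 0.15, with 2 of 15 higher and 0 lower. Efhc2 (1.40 and 16.5 TPM) had the largest ratio of the list, 11.8 (9.52 to 14.8), and Tekt3 (0.204 and 1.17 TPM) was the other higher gene, while Nme7, Mns1 and Enkur had ratios of 0.898, 1.204 and 1.12. Tekt3 was measured only through E14-Sox2TA/WT, so the filter partly sets the count of higher genes here. Other central apparatus genes had a median of -0.13, which turned to 0.04 under FPKM and 0.05 with reads scaled by library totals, and Spag16 (2.24 and 10.8 TPM) and Wdr47 (35.8 and 14.7 TPM) were the 1 higher and the 1 lower gene. Camsap3 and Spef1, abundant genes of that list, had ratios of 0.749 and 1.10. In the order given, the shares of these lists over 2-fold higher were 12.5%, 10%, 13.3% and 10%, under the 17.0% of all genes. The shares over 2-fold lower were 0%, 20%, 0% and 10%, against 18.9%.

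Genes of the primary cilium, the non-motile sensory cilium that most cells carry, leaned the other way. Of the 69 listed genes all were measured, 0 were over 2-fold higher and 8 were over 2-fold lower, and 58 had a ratio below 1. The 8 are 11.6% of the list, under the 18.9% of all genes over 2-fold lower. The 58 are 84.1% of the list, against 54.8% of all genes, and by library totals the shares were 71.0% and 46.2%. The 31 intraflagellar transport genes, which carry cargo along both kinds of cilium, had a median log2 ratio of -0.48, and the 38 genes of the BBSome and transition zone had -0.46. Kif3a, the transport motor, had 71.1 and 27.3 TPM, a ratio of 0.384 (0.370 to 0.398), and Ift122 had 21.0 and 7.40 TPM, a ratio of 0.353 (0.325 to 0.383). Kif3b was the third transport gene over 2-fold lower. Ift43, Ift20 and Kifap3, the most abundant of the transport list, had ratios of 0.716, 0.870 and 0.507. Ahi1 (58.6 and 16.5 TPM) and Ttbk2 (16.5 and 6.40 TPM) were the lowest of the second list, with ratios of 0.282 and 0.388, while B9d1 had 0.916. Bbs1, Bbs9 and Evc were the other genes of that list over 2-fold lower, and by reads they had 0.535, 0.554 and 0.508, within 2-fold. The difference between the medians of motile and primary cilium genes is a description of these 2 libraries and was not tested.

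Genes listed as markers of tissues that carry motile cilia differed between the libraries in opposite directions. Whether these genes are restricted to the tissue of their list was not tested, so a higher level does not show that a tissue was gained. Of the airway secretory and basal epithelium list, 13 of 15 measured genes (86.7%) were over 2-fold higher in E14-Sox2TA/WT, against 17.0% of all genes. For 10 of the 15 the counting interval lay above 1. A gene under 1 TPM in E14, such as Ltf, was measured only through E14-Sox2TA/WT, so the filter partly sets this count. The median log2 ratio was 1.82 and the summed level went from 116 to 652 TPM. Krt5, a basal cell keratin, had 25.1 and 127 TPM, Reg3g had 4.25 and 198 TPM and Ltf had 0.853 and 62.9 TPM. Scgb1a1, Scgb3a1, Sftpa1, Sftpd and Tff2 had no read in E14 and 15, 69, 8, 206 and 272 reads in E14-Sox2TA/WT. Of the choroid plexus list, 6 of 8 (75%) were higher and the summed level went from 92.4 to 218 TPM, with Ttr at 1.32 and 41.1 TPM, Folr1 at 7.95 and 49.6 TPM and Otx2 at 45.2 and 36.4 TPM. Of general epithelial genes, 4 of 12 (33.3%) were higher, Krt8 (118 and 426 TPM), Krt18, Krt19 and Elf3. By library totals 10 of 12 were higher, against 3138 of all 15694 genes. The summed level of these epithelial genes went from 542 to 1382 TPM. Of 3 measured oviduct genes 1 (33.3%), Wt1 (0.137 and 1.42 TPM), was higher, and it passed the filter only through E14-Sox2TA/WT. Ovgp1 and Pax8 had ratios of 1.14 and 1.67.

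The radial glia and ependyma list went the other way, with 5 of 12 over 2-fold lower, among them Fabp7, Hes5 and Slc1a3, 0 higher and a summed level of 4939.5 TPM in E14 and 2073 in E14-Sox2TA/WT. The 5 are 41.7% of the list, against 18.9% of all genes. Fabp7, a radial glial lipid carrier, had 2497 and 708 TPM, and Vim had 1530.0 and 914 TPM. Node genes gave 4 higher (Nodal, T, Noto and Pkd1l1) and 2 lower (Dand5 and Gdf1, the latter at 0.628 by reads) of 8, with Nodal at 3.01 and 38.9 TPM, T at 4.73 and 40.1 TPM, Foxa2 at 35.3 and 57.2 TPM and a summed level of 108 and 207 TPM. The 4 and the 2 are 50% and 25% of the list, against 17.0% and 18.9% of all genes. Among genes of spermatids and meiotic germ cells, the spermatid genes Prm1, Prm2, Tnp1, Tnp2, Acrv1 and Akap4 had no read in either library. Of the 7 genes of that list that were measured, 6 (85.7%) were higher, and for 5 of the 7 the counting interval lay above 1. Among the higher genes were the meiotic gene Sycp3 (0.342 and 26.05 TPM) and the germ cell gene Dazl (3.12 and 53.6 TPM). Sycp3 passed the filter only through E14-Sox2TA/WT. Acr was lower, and the summed level was 7.98 and 92.2 TPM. Both libraries thus held reads of genes on the neural, epithelial and node lists, and whether node cells were present was not measured. Which of these tissues held the ciliated cells was not measured, and the part of any of them in the levels of cilia genes was not tested.

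**Figure D4:**
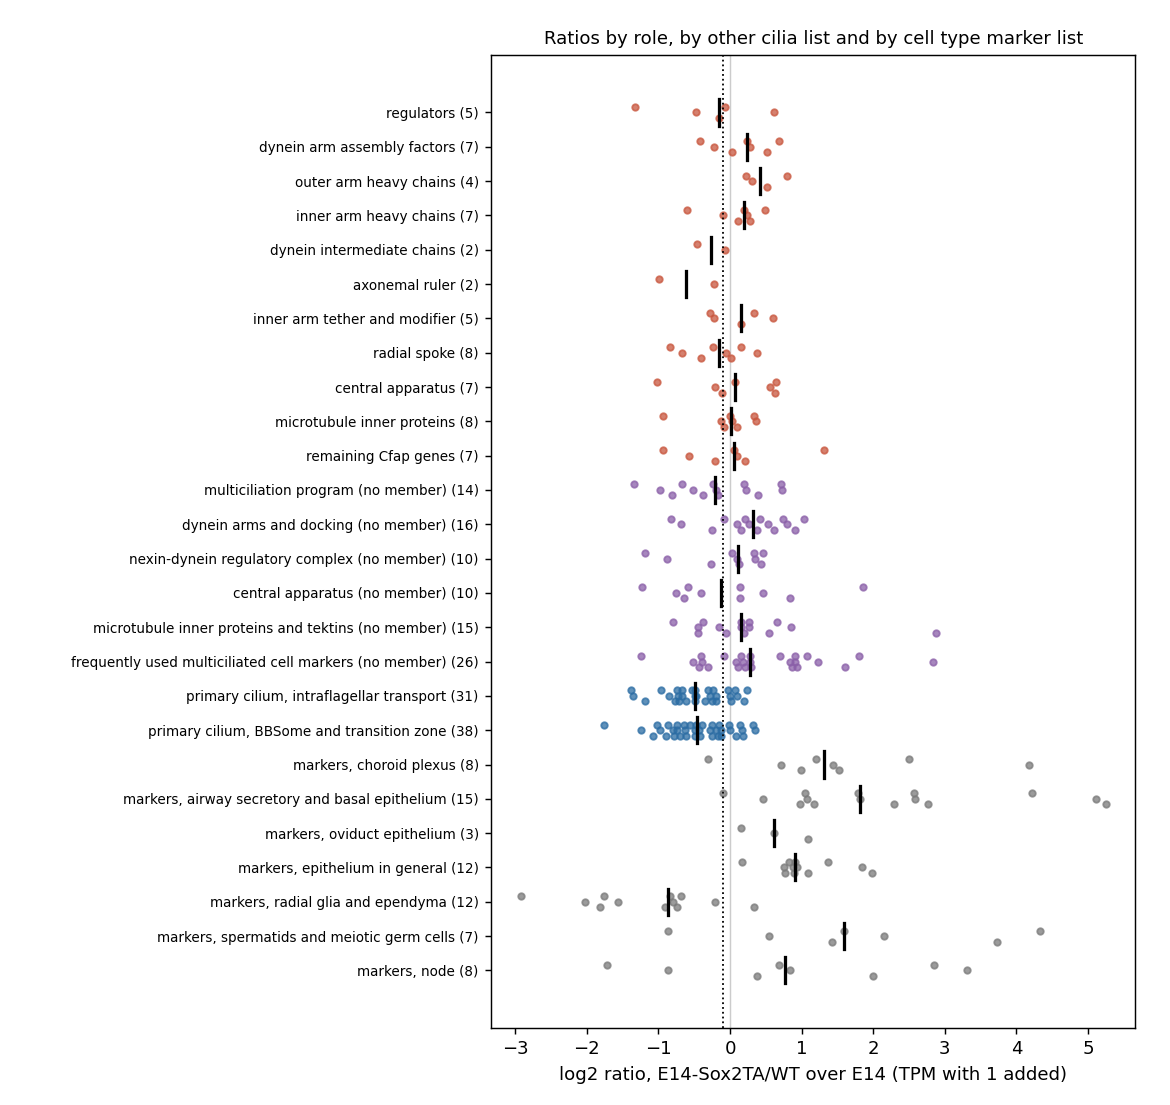
The log2 ratio of E14-Sox2TA/WT over E14 (TPM with 1 added) for each measured gene, by role of the motile cilia genes (red), other motile cilia list (purple), primary cilium list (blue) and cell type marker list (grey), with the number of genes in parentheses. Black bars are medians and the dotted line is the median of all protein-coding genes, -0.10. Red medians lie between -0.61 and 0.41, the blue medians are -0.48 and -0.46, and grey medians run from -0.87 to 1.82.

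The reading of single genes is limited by how reads were assigned. Dnah7a, Dnah7b and Dnah7c, and Rsph3a and Rsph3b, are near-identical copies. Another 10 cilia genes overlap exons of a neighbour over more than 10% of their length, among them Cfap298 (44.2%, Gm49727, opposite strand) and Ccdc39 (16.9%, Ttc14, opposite strand), and whether reads were assigned by strand is not given in the sources used here. For 5 measured genes, Cfap69, Cfap97d2, Dnah11, Dnah2 and Rfx3, the TPM ratio and the read ratio differed by over 1.25 times after centring on all genes.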

How the data were processed

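The authors deposited read counts, FPKM (reads corrected for library and transcript size) and TPM (the same with a fixed total per library) per gene for both teratoma libraries. The submitters' processing notes name bcl2fastq 2.20.0, Trimmomatic, HISAT2 2.1.0 and StringTie 2.1.3b, with no role or order, and the builds mm10 and hg19. Gene identifiers matched RefSeq on GRCm38 for all 70 cilia genes. Ratios were computed from TPM, and counting intervals from the read counts. Genes that reached 1 TPM in either library were counted at 2-fold, the fold threshold that the study uses. Transcript lengths, shared stretches and overlaps came from GENCODE vM21, with the longest transcript of a gene. The gene set, the lists and the tests were chosen with earlier results of these data known. Genes given in full were the regulators, Ccdc39, Ccdc40, Tekt1 and, in each role, the 3 highest TPM and the 2 largest log2 ratios in each direction. In other lists they were the 3 highest TPM and the 2 largest log2 ratios, and any other gene was named after its values were seen. Scripts recovered 200 of 200 changed genes in simulated counts for 45777 genes, which checks the code and does not measure false calls between 2 libraries. Alternatives covered the scaling, filter, fold threshold, pseudocount, chromosomes, transcript length and gene set. TMM factors came from edgeR 4.0.16 under R 4.3.3, and everything else was computed in Python 3.11.15 with scipy 1.17.1, pandas 2.3.3 and numpy 2.4.6. Some genes of the lists are counted but not reported by name here.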

Additional observations from a re-analysis of the deposited data

How the results depend on the processing

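No paired analysis was possible because there was 1 library per group, and for the same reason no replicate could be left out. Of 228 alternative values of counts and medians, 205 stayed close to the reported value with the same direction, 11 moved and 12 changed sign. The 12 sign changes were all of medians, and the cause was not tested except where fewer genes were measured by construction. The number of cilia genes over 2-fold higher, 3 as reported, was 7 under FPKM, 6 with reads scaled by library totals, 7 with no TPM filter (at least 1 read), 6 relative to genes of like transcript length, 10 at 1.5-fold, 1 at 3-fold, 1 when the whole counting interval had to pass and 0 where 10 TPM was asked for. The number lower, also 3, was 9 at 1.5-fold, 1 at 3-fold and 1 where 10 TPM was asked for. At that level the median log2 ratio was -0.15 over the cilia genes, -0.046 over microtubule inner proteins and -0.57 over the remaining Cfap genes. Under FPKM it was 0.027 for the regulators, 0.013 for radial spokes and 0.039 for the other central apparatus genes, and with reads scaled by library totals it was 0.017 and 0.052 for the last 2 of these. Relative to genes of like length it was -0.15 for microtubule inner proteins and -0.11 for the remaining Cfap genes. For the other central apparatus genes it was 0.10 with no TPM filter and 0.14 without chromosomes 8, 15 and Y. The median log2 ratio of all genes on these chromosomes was -0.54, 0.33 and -3.07 in that order, the last over 5 genes. Capsl and Lrrc6 lie on chromosome 15, and Cfap20, Cfap97d2 and Gas8 on chromosome 8. Leaving out the near-identical copies of Dnah7 and Rsph3, an alternative added after seeing the data, gave a median of 0.03, 2 genes higher and 3 lower. Of 147 rescaled ratios of single cilia genes, 86 stayed within the counting interval, 61 left it and 0 of those over 2-fold changed direction. Genes with few reads, such as Cfap73, allow wide intervals, and differences between tumours were not measured.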
